A study of Mus musculus with 24 samples.

Results

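Upper-layer cortical excitatory neurons were selected from single-nucleus RNA-seq of mouse cerebral cortex by 2 marker genes. Slc17a7 encodes the vesicular glutamate transporter of cortical excitatory neurons and Cux2 encodes a homeodomain transcription factor of the upper layers. A nucleus was a member when it had more than 500 and fewer than 7000 detected genes, less than 20% mitochondrial UMIs and at least 3000 UMIs (unique molecular identifiers, each counting 1 captured RNA molecule). It also needed at least 2 UMIs of Slc17a7 and at least 2 of Cux2, with more Cux2 than Foxp2 and Hs3st4 together, the genes used here to mark deep layers. At most 1 UMI of Gad1 and Gad2 (inhibitory neurons), at most 2 of Mog, Mag and Mobp (myelin) and none of Csf1r (microglia) were allowed. This gave 3238 nuclei, 22.8% of the 14190 excitatory nuclei that met the other limits and 4.05% of the 79967 cortical nuclei that passed the limits on genes and mitochondrial share. The whole series held 204925 such nuclei from 24 libraries. The levels of these genes chose the members, so they are given as a description only.

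Upper-layer excitatory neurons occupy layers 2 to 4 of the neocortex. Those of the superficial layers send axons to other cortical areas, including across the corpus callosum, while those of layer 4 receive input from the thalamus. The transcription factors Cux1 and Cux2 mark them, whereas deep-layer neurons, which project to the thalamus, brainstem and spinal cord, use Foxp2, Tbr1, Fezf2 or Bcl11b.

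Nuclei came from 6 mutant mice (Pdgfb ret/ret) and 6 control mice (Pdgfb ret/wt). The ret allele of Pdgfb lacks the retention motif with which the endothelial growth factor PDGF-B is held near the vessel. Mutants have few pericytes and their deep brain vessels calcify, whereas cortical vessels do not. Controls carried 1 copy of the allele and were not wild type. Strain was B6.Pdgfbtm3Cbet for all, each mouse gave 1 cortical library, and the cortical dissection included the hippocampus. Control 6 was a male and the other 11 mice were females. By the labels, mice 1, 2 and 3 of both genotypes were aged between 5 months and 5 months plus 18 days. Mice 4, 5 and 6 were aged between 4 months plus 7 days and 4 months plus 24 days. The study's methods give a single age for all mice, which differs from some of these labels. The comparison of mutant with control asked whether neurons in a cortex without calcified vessels differed in number or in expression.

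The 12 cortical libraries held 23625232 to 95605387 UMIs, and the median per nucleus ranged from 804 to 8054. It was at least 1500 in 5 libraries (controls 2, 5 and 6 and mutants 5 and 6) and lower in 7. Between 878 and 8436 nuclei per library reached the 3000 UMIs that members needed. Control 5 and mutant 5 gave 1730 of the 3238 members, and each other library gave between 59 (mutant 3) and 468 (mutant 6). Members themselves were deep in every library, with median UMIs between 12530 and 24534 and median detected genes between 4293 and 6173. The split at 1500 is by all kept nuclei and does not follow the depth of the members. Members had median UMIs of 12530 to 21407 in the 5 libraries above it and 20296 to 24534 in the 7 below. Their summed counts were 1406461 to 12289800 UMIs per library. On the first principal component of these sums, which held 24.1% of the variance, controls 5 and 6 and mutants 5 and 6 lay between 19.3 and 28.4 and the other 8 libraries between -21.5 and -1.98. Mice 5 and 6 of both genotypes thus stood apart from mice 1 to 4. At the lower edge of the rule, 428 members had exactly 2 Cux2 UMIs and 448 exactly 2 Slc17a7 UMIs. A further 407 nuclei with 1 Cux2 UMI and no deep-layer UMI, and 182 with equal counts of Cux2 and the deep-layer genes, were left out. Only 8 members shared a barcode with a member of another cortical library, and 290 with any kept nucleus of another.

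The label was checked on markers without the genes of the rule. Levels are given in CPM, counts per 1e6 UMIs of all member nuclei of a library. The 12 upper-layer markers other than Slc17a7 and Cux2 summed to between 2393 and 3065 CPM in the members, against 1241 to 1699 CPM in deep-layer nuclei of the same libraries. Deep-layer nuclei were the 7620 excitatory nuclei with at least 2 UMIs of Foxp2 and Hs3st4 and fewer of Cux2. Cux1, the paralogue of Cux2, averaged 330 CPM in members and 138 CPM in deep-layer nuclei. The 9 layer 6 markers other than Foxp2 and Hs3st4 summed to between 178 and 286 CPM in members and between 970.2 and 1453 CPM in deep-layer nuclei. Fezf2, which specifies neurons that project below the cortex, averaged 2.06 CPM in members and 29.9 CPM in deep-layer nuclei. The 8 layer 4 markers went the other way, at 393 to 669 CPM in members and 659 to 1171 CPM in deep-layer nuclei. Rorb, Scnn1a, Kcnh5, Whrn, Cartpt, Zmat4 and Endou averaged lower in members and Rspo1 higher. The members were thus poorer in layer 4 markers than the deep-layer nuclei. They overlapped with the kept nuclei outside both sets, at 427 to 609 CPM. Whether the deep-layer nuclei, chosen by Foxp2 and Hs3st4 alone, include layer 4 neurons was not tested. Without the genes that the rule capped, 8 inhibitory neuron markers summed to between 71.8 and 274 CPM, 5 oligodendrocyte markers to between 115 and 219 CPM and 6 microglial markers to between 30.9 and 47.0 CPM. In the remaining nuclei these sums were 2325 to 3670, 1709 to 4213 and 190.3 to 521 CPM. The caps can also lower other markers of these classes. The 8 astrocyte markers stood at 707 to 896 CPM in members, 955 to 1172 CPM in deep-layer nuclei and 1212 to 1748 CPM in the remaining nuclei. In droplet data, free RNA also reaches other nuclei. Among 2820 oligodendrocyte nuclei of the same libraries, 10.9% had at least 2 Cux2 UMIs, 16.0% at least 2 Slc17a7 UMIs and 4.26% both, at median UMIs of 3773 to 6079, below the depth of the members. Of the members, 82 were among the 6% of nuclei with the highest doublet scores of their library. The 8 dentate gyrus markers summed to between 522 and 926 CPM in members and between 259 and 415 CPM in deep-layer nuclei, with Stxbp6, Pdzd2, Trpc6 and Calb1 higher on average in members and Prox1, C1ql2, Dsp and Tdo2 lower. Prox1, the transcription factor of hippocampal granule cells, averaged 2.37 against 13.3 CPM, and C1ql2 1.63 against 6.78 CPM. Prox1 had at least 2 UMIs in 32 members, 13 of them from mutant 5 and 11 from mutant 6, and stood at 110 CPM in cluster 11 described below and 1.79 CPM in the other members.

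**Figure D1:**
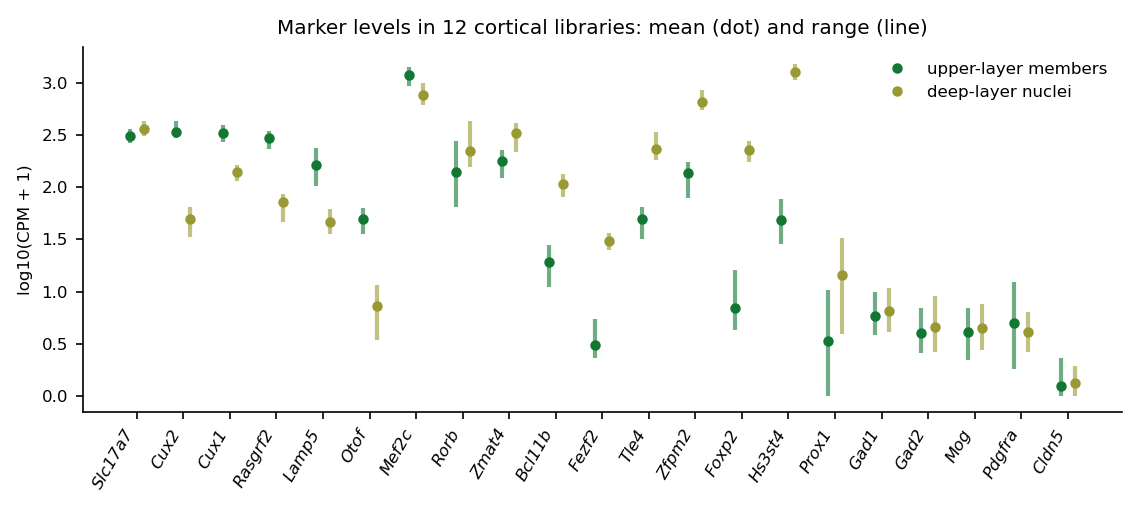
Mean (dot) and range over the 12 cortical libraries (line) of log10(CPM + 1) for marker genes in upper-layer and deep-layer excitatory nuclei. Cux1 (330 and 138 CPM) and Otof (48.7 and 6.20 CPM) were higher in upper-layer nuclei and Fezf2 (2.06 and 29.9 CPM) in deep-layer nuclei.

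Between upper-layer and deep-layer nuclei of the same library, 3983 genes had at least 50 CPM in either layer, and 1318 of them differed in the same direction in all 12 libraries. Of these, 630 were higher in the upper layer and 688 in the deep layer, 56 and 83 of them over 2-fold by the median ratio. Both sets were chosen by gene expression, so no test is given, and ratios are of CPM with 10 CPM added. After Cux2, the largest difference towards the upper layer belonged to Stard8, a GTPase-activating protein, at 49.9 to 90.5 CPM against 3.80 to 10.5 CPM (median log2 ratio 2.15). Rasgrf2, an exchange factor for Ras and a known gene of layers 2 and 3, had a log2 ratio of 1.88, with 234 to 346 CPM in members and 45.0 to 85.5 CPM in deep-layer nuclei. Enpp2, which encodes autotaxin (the enzyme that makes lysophosphatidic acid), had a log2 ratio of 1.74, and Lamp5, a membrane protein of neurons, 1.64. Gucy1a1 (a subunit of the nitric oxide receptor guanylyl cyclase), Cdh7 and Nectin3 (cell adhesion), Trpc6 (a cation channel), Pde7b (a cAMP phosphodiesterase) and Calb1 (the calcium buffer calbindin) had log2 ratios between 1.49 and 1.71. All of them were higher in the upper layer of each of the 12 libraries, which was a condition for being listed here.

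Towards the deep layer, and apart from Foxp2 and Hs3st4 of the rule, the kainate receptor gene Grik3 differed most, at 11.3 to 34.5 CPM in members and 174 to 343 CPM in deep-layer nuclei (median log2 ratio -2.84). Thsd7b had a log2 ratio of -2.56, Sema3e, which encodes a secreted guidance cue, -2.47, and Ccn2, a marker of layer 6b, -2.25. The serotonin receptor gene Htr1f (-2.22), the cadherin gene Cdh18 (-2.16) and the transcription factor genes Zfpm2 (-2.12) and Bcl11b (-2.03) followed. Rorb, which marks layer 4, was not higher in members: it averaged 139 CPM there and 221 CPM in deep-layer nuclei.

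Unsupervised clustering divided the members into 11 clusters, and the genes that define them are a description. Cluster 1 held 1566 nuclei (48.4%) and was led by Robo3, Gm765 and Plcb4, with 129 CPM of the guidance receptor gene Robo3 against 30.3 CPM in the other members. Rasgrf2 (432 CPM) and Lamp5 (191 CPM) were also over 2-fold above the other members in this cluster. Cluster 2 (466 nuclei, 14.4%) was layer 4-like by 5 of 8 markers, Rorb, Rspo1, Kcnh5, Whrn and Zmat4. Rorb, a nuclear receptor of layer 4 neurons, stood at 546 CPM in it and 84.5 CPM in the rest. Cluster 4 (336 nuclei, 10.4%) was led by Met and Cdh13 and held more Otof (148 against 38.7 CPM), a calcium sensor of vesicle fusion, and more Col23a1 (102 against 20.6 CPM), a transmembrane collagen. Cluster 5 (107 nuclei) was claustrum-and-insula-like by all 5 markers, Gnb4, Nr4a2, Synpr, Ntng2 and Oprk1, with 885 CPM of the nuclear receptor gene Nr4a2 against 45.2 CPM.

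Clusters 3, 6, 7 and 8 took no name from the marker lists. Cluster 3 (391 nuclei, 12.1%) was led by Ndst4 (404 against 8.70 CPM) and Lmo3, with more Bcl11b (72.7 against 8.18 CPM). Cluster 6 (96 nuclei) was led by Tshz2, Vwc2l and Npsr1, cluster 7 (83 nuclei) by Il1rapl2, Cpa6 and Gpc5, and cluster 8 (65 nuclei) by 9330185C12Rik, Rxfp1 and Rerg. Cluster 6 had 3 of 8 layer 4 and 3 of 8 layer 5 markers over 2-fold. Others of these lists were lower there, with Rorb at 11.2 against 138 CPM and Bcl11b at 2.80 against 18.4 CPM. The upper-layer markers Lamp5 (26.1 against 142 CPM), Otof, Nectin3, Calb1 and Wfs1 were over 2-fold lower.

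The remaining 3 clusters, 128 nuclei in all, were led by genes of another class or by mitochondrial genes. Cluster 9 (59 nuclei) carried Slc1a3 (479 CPM), the glutamate transporter of astrocytes, Apoe (589 CPM) and Sox6 (388 CPM), with 8 of 8 astrocyte markers and 6 of 6 oligodendrocyte precursor markers over 2-fold. Cluster 10 (39 nuclei) was led by 10 mitochondrial genes at a median of 5886 UMIs. Cluster 11 (30 nuclei) was led by Synpo2, Plekhg1 and Prkcd. It had 8 of 10 genes of a list of thalamic neuron markers that was added after the values were seen, with 693 CPM of Lef1 and 487 CPM of Tcf7l2. Of its nuclei, 25 came from mutants and 5 from controls. Mutant 5 gave 14 of these nuclei, mutant 6 gave 9, control 5 gave 3, control 2 gave 2 and mutants 1 and 3 gave 1 each. Clusters 9 and 11 thus carried genes of another class beside the markers of the rule, and the comparison of genotypes was also computed without clusters 9, 10 and 11.

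**Figure D2:**
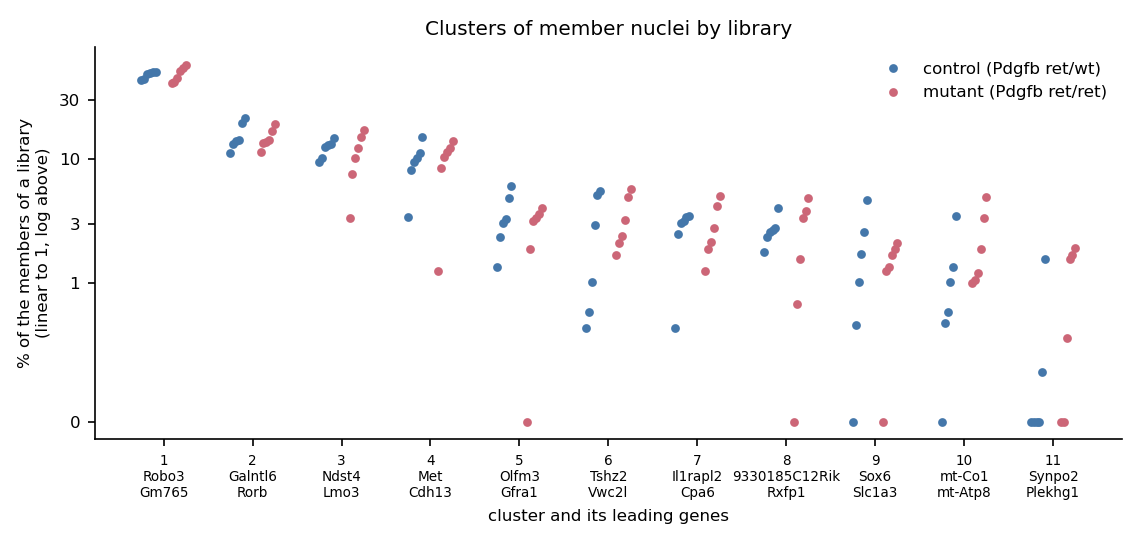
Share of each library's member nuclei (%, axis linear to 1 and logarithmic above) in the 11 clusters, 1 point per library, with the leading genes under each cluster number. Cluster 1 held between 41.0% and 57.5% of the members in every library, and for each cluster the shares of mutants and controls overlapped.

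No cluster's share of the members passed a test between mutants and controls. Cluster 1 held 48.5% ± 6.91 (SD, n = 6) of the members in mutants and 47.5% ± 3.09 in controls, and the layer 4-like cluster 14.8% ± 2.70 and 15.6% ± 4.01. For cluster 11, with 0.967% ± 0.874 in mutants and 0.324% ± 0.635 in controls, the difference of 0.643 percentage points was the one with the smallest p (two-sided exact permutation test, p = 0.177, adjusted over 11 clusters p = 0.898). The 2 control nuclei of cluster 11 in control 2, out of 126 members, made that library's share 1.59%.

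Rorb, which was not itself a gene of the rule, split the members. It had at least 2 UMIs in 850 members, 1 UMI in 292 and none in 2096. Of 3931 genes at 50 CPM or more, 457 differed in the same direction in all 12 libraries between members with at least 2 Rorb UMIs and those with none, 231 towards the first and 226 towards the second. Pld5 (68.3 against 10.3 CPM, median log2 ratio 1.94), Galntl6 (1.69), Rcan2 (1.65), which encodes a calcineurin inhibitor, the potassium channel gene Kcnh5 (1.47) and Brinp3 (1.30) were higher with Rorb. Tshz2 (33.4 against 182 CPM, -2.08), Wfs1 (-1.55), which encodes wolframin of the endoplasmic reticulum, Trpc6 (-1.33), Otof (-1.25) and the semaphorin receptor gene Nrp1 (-1.25) were lower. The median depth was 15513 UMIs with Rorb and 15637 without, and within libraries it was higher with Rorb in 4 of 12. Rorb chose the sets, so no test is given. Hs3st4, which the rule held below Cux2, averaged 89.0 CPM in members with at least 2 Rorb UMIs and 30.7 CPM in those with none. The split is therefore not independent of the rule. How many nuclei with Rorb the rule left out for their Hs3st4 was not tested.

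The share of upper-layer nuclei did not differ detectably between genotypes. Members made up 6.84% (lowest), 9.16% (median) and 11.5% (highest) of the nuclei with at least 3000 UMIs in controls and 6.72%, 7.64% and 11.3% in mutants. The ranges overlapped almost wholly. Means were 8.21% ± 1.72 (SD, n = 6) in mutants and 8.98% ± 1.76 in controls, a difference of -0.767 percentage points (two-sided exact permutation test over libraries, p = 0.448, adjusted over 3 shares p = 0.672). The smallest p that 6 against 6 libraries allow is 0.00216. In the 5 libraries with a median of at least 1500 UMIs the difference was 1.44 percentage points, and in the 7 below it was -2.01. With every nucleus thinned to 3000 UMIs, the shares were 0.902% ± 0.441 and 0.868% ± 0.248.

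Upper-layer nuclei formed 28.6%, 29.9% and 32.7% (lowest, median and highest) of the upper-layer and deep-layer nuclei together in controls and 24.7%, 28.4% and 31.3% in mutants. Mutants 2, 3 and 4 lay below every control, and mutant 5 above 5 of the 6 controls. The mean was 28.0% ± 2.36 in mutants and 30.1% ± 1.39 in controls, a difference of -2.11 percentage points that did not pass the two-sided exact permutation test (p = 0.0974, adjusted p = 0.292, n = 6 per group). It was 0.379 percentage points in the libraries of at least 1500 median UMIs and -3.51 in the others. Without mutant 5, one of the 12 libraries left out in turn, it was -2.76 percentage points (two-sided exact permutation test, p = 0.0173, adjusted p = 0.0519). That adjustment used the p-values of the other shares in all libraries.

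Members with at least 2 Rorb UMIs, counted after thinning each member to 3000 UMIs, made up 3.50%, 11.2% and 20.3% of the members in controls and 7.50%, 9.78% and 16.9% in mutants. Controls spanned the range of all mutants. Means were 10.9% ± 3.72 in mutants and 11.3% ± 5.87 in controls (difference -0.464 percentage points, two-sided exact permutation test, p = 0.872, adjusted p = 0.872, n = 6 per group). At the full depth of each nucleus they were 27.3% ± 5.10 and 28.9% ± 6.40. Among oligodendrocyte nuclei, 6.13% had at least 2 Rorb UMIs, and 3.16% after the same thinning. The difference was 2.84 percentage points in libraries of at least 1500 median UMIs and -4.31 in the others.

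**Figure D3:**
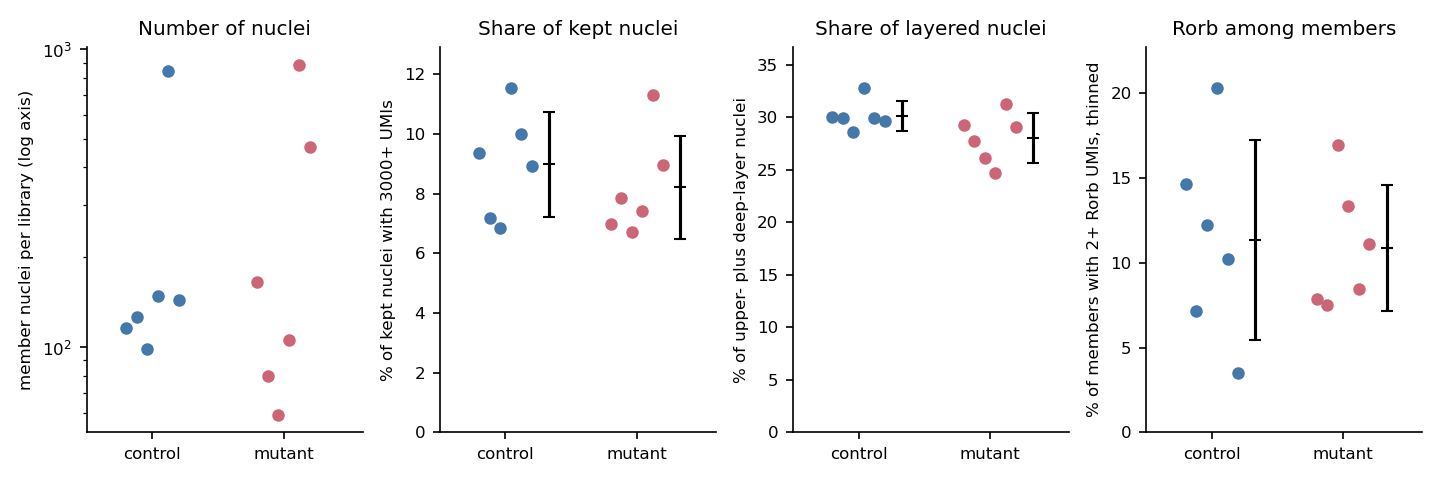
Number of member nuclei per library (log axis) and the 3 shares (%) in controls and mutants, 1 point per library with the mean and SD. Control 5 and mutant 5 stand above the other libraries in number (843 and 887 nuclei), while the 3 shares overlap between genotypes.

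Pdgfb itself was low in these neurons. It stood at 11.2 (lowest), 16.8 (median) and 19.6 CPM (highest) in controls and at 4.27, 12.8 and 18.1 CPM in mutants, with overlapping ranges (log2 fold -0.27 ± 0.24 SE, 95% interval -0.78 to 0.25). Reads from the 5' end of the transcript do not cover the deleted motif near its 3' end, so this level does not check the genotype. The gene lies on chromosome 15 from 79995874 to 80014977 on the minus strand (GRCm38). Of the genes of the rule, Slc17a7 was at 263 to 356 CPM in mutants and 266 to 361 CPM in controls, and Cux2 at 296 to 434 and 296 to 381 CPM.

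No gene differed between mutant and control upper-layer nuclei after adjustment. The counts of the members were summed per library, and 12063 genes with enough counts were tested with edgeR's quasi-likelihood test (Benjamini-Hochberg adjustment, threshold 0.05). None passed (0% called, smallest adjusted p = 0.988), and DESeq2 also called 0. Before adjustment, 530 genes (4.39%) had a p under 0.05, 235 of them higher (1.95%) and 295 lower (2.45%) in mutants, and DESeq2 gave 450. The data bounded most differences: the 95% interval of the fold lay within 1.5-fold either way for 9263 genes (76.8%), within 2-fold for 11752 (97.4%), and within 1.5-fold for 1785 of the 1858 genes at 100 CPM or more (96.1%). For genes under 20 CPM it lay within 1.5-fold in 2460 of 4770 (51.6%). The CPM ranges of the 6 mutants and 6 controls did not overlap for 33 genes (0.274%), 8 higher (0.0663%) and 25 lower (0.207%) in mutants. P-values measure the spread between mice, 1 library each.

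The 10 genes with the smallest p are described although none passed, each with an adjusted p of 0.988, and a ± after a log2 fold or term is its standard error. Msmo1, the sterol C4-methyl oxidase of cholesterol synthesis (chromosome 8, 64718139 to 64733792, minus strand), was at 37.5 (lowest), 39.3 (median) and 58.2 CPM (highest) in controls and 20.5, 25.9 and 36.3 CPM in mutants. All 6 mutants lay below all 6 controls, the nearest being mutant 4 and control 1. The log2 fold was -0.64 ± 0.13 (95% interval -0.92 to -0.35, adjusted p = 0.988). Hmgcs1, the synthase of hydroxymethylglutaryl-CoA at the start of the same pathway (chromosome 13, 119690379 to 119708260), was at 33.3, 35.3 and 42.9 CPM in controls and 18.1, 26.2 and 32.0 CPM in mutants. These groups did not overlap either (log2 fold -0.47 ± 0.11). Without clusters 9, 10 and 11 the log2 folds were -0.64 and -0.51, and 5 of 6 mutants for Msmo1 and 6 of 6 for Hmgcs1 lay below every control. In deep-layer nuclei of the same mice the log2 folds were -0.48 for Msmo1 and -0.24 for Hmgcs1.

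Col23a1 (chromosome 11, 51289920 to 51583918) was at 20.6 to 26.9 CPM in controls and 28.2 to 39.6 CPM in mutants, with every mutant above every control (log2 fold 0.51 ± 0.11). It marked cluster 4, whose share was 9.68% ± 4.52 in mutants and 9.59% ± 3.82 in controls (SD, n = 6). In cluster 1 alone the log2 fold was 0.49, and in deep-layer nuclei -0.02. With each member thinned to 3000 UMIs it was 0.08, and that of Hmgcs1 was -0.21. Spock3, a secreted proteoglycan of the testican family, was at 90.0, 102 and 113 CPM in controls and 113, 129 and 146 CPM in mutants, again without overlap (log2 fold 0.38 ± 0.09). Without clusters 9, 10 and 11 its log2 fold was 0.28 and the groups overlapped, with 4 of 6 mutants above every control, and in cluster 1 alone the log2 fold was 0.22.

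Cacna1c, the pore subunit of the L-type calcium channel, was the most abundant of the 10, at 655, 724 and 788 CPM in controls and 774, 859 and 939 CPM in mutants. Mutant 5 alone lay within the range of the controls, and the log2 fold was 0.27 ± 0.07 (adjusted p = 0.108 in DESeq2). Pfkl, the liver isoform of phosphofructokinase in glycolysis, was at 31.5, 38.5 and 45.5 CPM in controls and 44.8, 49.2 and 56.8 CPM in mutants (0.40 ± 0.10). Zfp423, a zinc finger transcription factor, had a log2 fold of 0.61 ± 0.15, with 20.0 CPM in the median control and 32.2 in the median mutant. Kndc1, a Ras exchange factor of dendrites, had 0.40 ± 0.10, with medians of 49.3 and 63.2 CPM. Capns1, the small subunit of calpain, had -0.47 ± 0.12, with medians of 30.6 and 20.5 CPM. In these 4 genes, over all members, 1 or 2 libraries of a genotype fell within the range of the other. Cluster 11 held 133 of the Zfp423 UMIs, at 241 CPM. Without the clusters led by genes of another class or by mitochondrial genes, log2 folds were 0.51 (Zfp423), 0.33 (Kndc1), 0.40 (Pfkl) and -0.46 (Capns1). There 3 mutants lay above every control for Zfp423 and 4 each for Kndc1 and Pfkl, while 6 lay below every control for Capns1.

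Mfge8, a secreted protein that bridges apoptotic cells to phagocytes and is made mainly by astrocytes, had the largest fold and the lowest level of the 10 (chromosome 7, 79133768 to 79149060, minus strand). It was at 4.03, 5.75 and 12.0 CPM in controls and at 1.31, 1.49 and 4.48 CPM in mutants, where 5 of the 6 mutants lay below every control (log2 fold -1.57 ± 0.38). Its 231 UMIs came from 129 members, and 110 of them lay in cluster 9, the one with astrocyte and oligodendrocyte precursor genes, where it reached 104 CPM. That cluster held 1.39% ± 0.757 of the members in mutants and 1.80% ± 1.69 in controls (SD, n = 6). Outside clusters 9, 10 and 11 it stood at 1.65, 3.75 and 4.98 CPM in controls and at 0.756, 1.05 and 1.61 CPM in mutants, with no overlap but only 110 UMIs, too few for the filter. The log2 fold was -2.62 in the 7 libraries with a median below 1500 UMIs over all kept nuclei and -0.64 in the other 5. It was -1.38 in deep-layer nuclei.

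**Figure D4:**
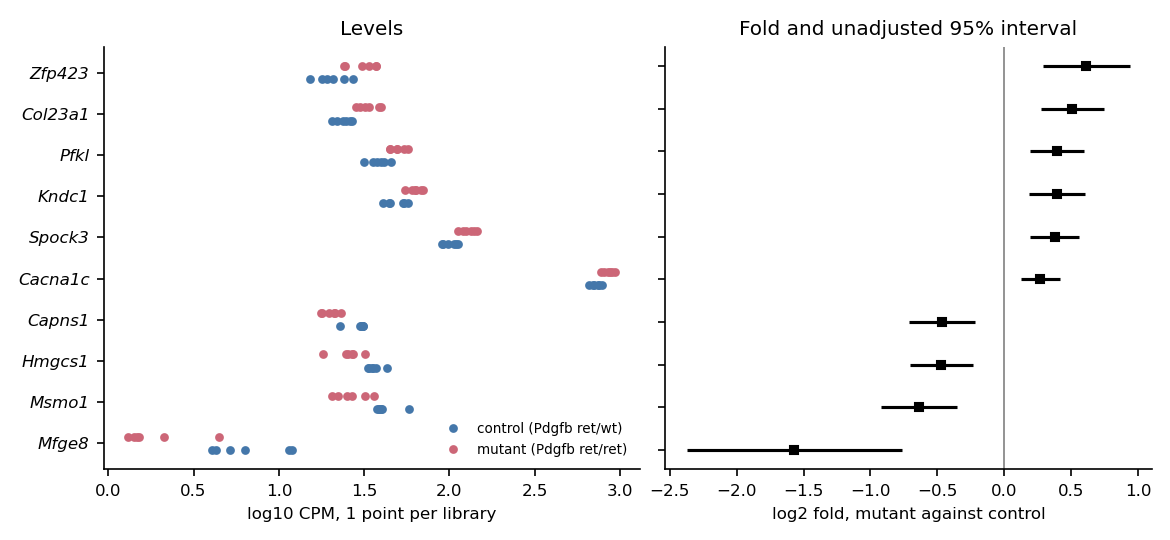
The 10 genes with the smallest p in the comparison of mutant with control upper-layer nuclei, as log10 CPM with 1 point per library (left) and as the log2 fold with its 95% interval (right). Msmo1, Hmgcs1, Col23a1 and Spock3 show no overlap between the 6 mutants and 6 controls, yet every adjusted p was 0.988.

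Gene lists were described by their counts and median, without a test of the list. Over all genes tested the median log2 fold was -0.0047 and 4.39% had a p under 0.05, and no member of any list passed after adjustment. Of 23 upper-layer transcription factors tested, 0 were higher and 3 lower at a p under 0.05 (median -0.02). Pou3f3, a POU factor of upper layers, was at 25.7 to 38.2 CPM in controls and 18.5 to 29.5 CPM in mutants (log2 fold -0.43 ± 0.14), while the abundant Mef2c (0.03) and Tcf4 (0.03) were close to 0. Members of the lists of ionotropic and metabotropic glutamate receptors (22 tested, 3 higher, 0 lower, median 0.08) included Grik4, a kainate receptor subunit, at 108 to 154 CPM in controls and 127 to 164 CPM in mutants (0.30 ± 0.10). Grin2b, a subunit of the NMDA receptor, had 0.08. None of 14 GABA receptor subunits had a p under 0.05 (median -0.03).

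The lists of potassium, sodium and calcium channels and of synaptic release and scaffold genes had medians between 0.02 and 0.09. Of 63 potassium channel subunits, 3 were higher and 1 lower at a p under 0.05 (6.35%, against 4.39% of all genes, median 0.04). Of 32 sodium and calcium channel subunits, 3 were higher and 0 lower (9.38%, median 0.09). Of 36 genes of synaptic vesicle release, 1 was higher and 5 lower (16.7%, median 0.02). Of 37 postsynaptic scaffold and adhesion genes, 1 was higher and 0 lower (2.70%, median 0.07). Syn3, a synapsin that coats vesicles, was at 168 to 245 CPM in controls and 222 to 328 CPM in mutants (0.39 ± 0.12). It was the 1 higher gene of vesicle release, and the 5 lower ones are not named here. Shank1, a scaffold of the postsynaptic density, was at 111 to 123 and 115 to 152 CPM (0.27 ± 0.08). Kcnip4, the most abundant of these subunits (10889 to 13662 CPM in mutants), had a log2 fold of 0.05, and Syt1, the calcium sensor of fast transmitter release, -0.02. Of 51 axon guidance genes 3 were higher and 0 lower (median 0.01), with the guidance ligand Slit3 at 0.19 ± 0.07.

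Activity and stress genes had medians below 0. Of all 12063 genes tested, 6204 had a log2 fold below 0. Of 30 immediate early genes, which neurons switch on after firing, 26 had a log2 fold below 0, with a median of -0.29, but only 2 had a p under 0.05, both lower. Egr1 was at 72.9 to 114 CPM in controls and 38.2 to 111 CPM in mutants (-0.44 ± 0.18), and Nr4a1 had -0.15. For 4 of these 30 genes the 95% interval lay within 1.5-fold. Of 20 heat shock and chaperone genes, 19 were below 0 (median -0.17) and 1, Hsp90ab1, had a p under 0.05 (-0.23 ± 0.11). Of 17 genes of the unfolded protein and integrated stress response, 14 were below 0 (median -0.18) and 2 had a p under 0.05, among them Manf, a factor of the endoplasmic reticulum (-0.31 ± 0.14). Ribosomal protein genes (79 tested) had a median of -0.13, with 68 below 0 and, at a p under 0.05, 0 higher and 2 lower. Mitochondrial transcripts (12 tested, 11 above 0, none with a p under 0.05) had a median of 0.30. Nuclear RNA holds little of either, and mt-Co1 varied from 37.3 to 160 CPM among controls and from 53.1 to 256 CPM among mutants. Members of cluster 10 held 3622 CPM of it.

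Of lists tied to the vascular model, hypoxia and glycolysis had 27 genes tested, 2 higher and 1 lower at a p under 0.05 (11.1%, against 4.39% of all genes, median -0.01), Pfkl above being the one with the smallest p. None of 10 interferon and MHC class I genes, 13 angiogenic ligands, 18 clock genes or 10 genes of PDGF signalling, phosphate transport and brain calcification had a p under 0.05. Pdgfa, the other PDGF chain of neurons, was at 12.6 to 25.9 CPM in controls and 12.8 to 20.0 CPM in mutants, and the phosphate exporter gene Xpr1, which underlies a form of familial brain calcification, at 109 to 124 and 97.8 to 124 CPM (log2 fold -0.09 ± 0.07). Of 150 genes that start within 5 Mb of Pdgfb and were tested, 1 was higher and 2 lower (median -0.02). The higher one, Gm41361, was at 27.4 to 46.9 CPM in controls and 41.9 to 59.6 CPM in mutants (0.39 ± 0.14).

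A list of 20 sterol synthesis genes was added after Msmo1 and Hmgcs1 had been seen among the smallest p, so its direction is not independent of them. Of the 20, 19 had a log2 fold below 0, 8 had a p under 0.05, all lower, and the median was -0.26. Of all 12063 genes tested, 6204 had a log2 fold below 0 and 4.39% a p under 0.05. Cyp51, the demethylase of lanosterol, was at 50.8 to 79.1 CPM in controls and 38.7 to 52.6 CPM in mutants (-0.37 ± 0.12). Sc5d, a sterol desaturase, was at 34.7 to 45.0 CPM in controls and 27.7 to 32.9 CPM in mutants, with no overlap (-0.33 ± 0.10). In deep-layer nuclei of the same libraries the log2 folds were -0.34 for Cyp51 and -0.28 for Sc5d. None of these genes passed after adjustment over all genes.

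**Figure D5:**
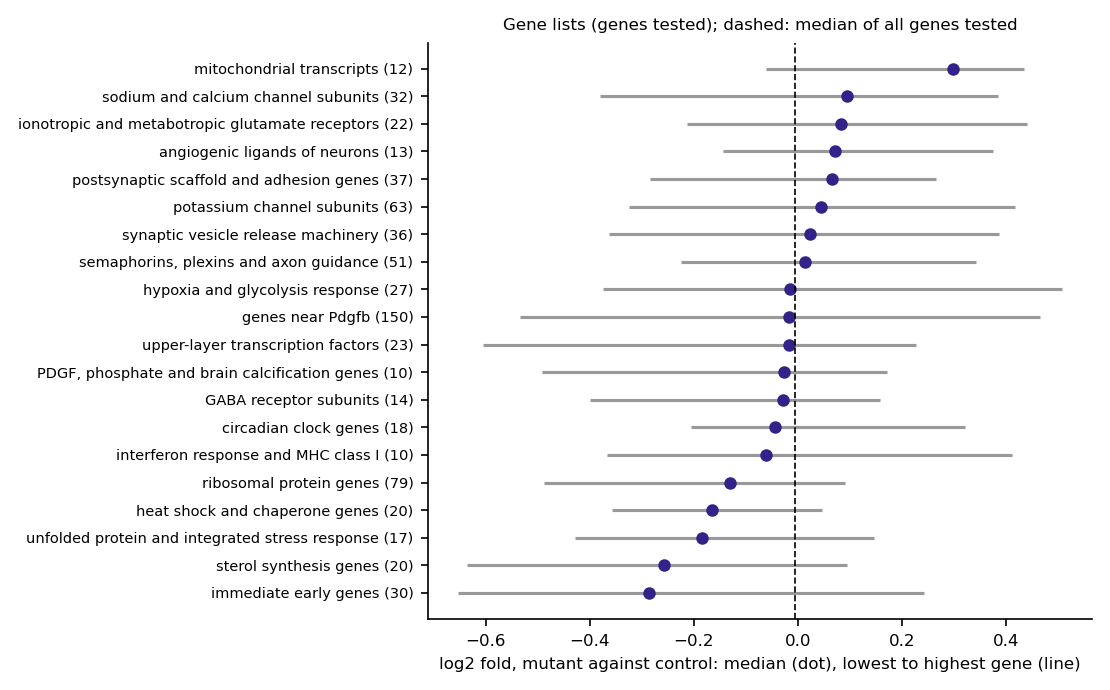
Median (dot) and range (line) of the log2 fold, mutant against control, over the tested genes of each list in upper-layer nuclei, with the number tested. The vertical line is the median of all 12063 genes, -0.0047. Sterol synthesis (-0.26, added after values were seen) and immediate early genes (-0.29) have the lowest medians and mitochondrial transcripts (0.30) the highest.

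Whether genotype acted differently on upper-layer and deep-layer nuclei was tested as a layer by genotype term, with each mouse as its own block, over 14083 genes. None passed (0% called, smallest adjusted p = 0.392, DESeq2 0), and 491 genes (3.49%) had a p under 0.05 before adjustment, 219 in DESeq2. Without the filter on low counts 54 genes passed, 52 of which were also tested with it, 40 of the 54 with a higher term in the upper layer. The call therefore depended on that filter. Col23a1 had the smallest p, with a term of 0.61 ± 0.11 on the log2 scale (adjusted p = 0.000196 without the filter). Crh, the neuropeptide corticotropin-releasing hormone, had a term of 2.69 ± 0.53. It rested on mutants 1, 2 and 4, at 6.03, 9.05 and 10.7 CPM, while mutants 3, 5 and 6 had at most 1.95 CPM and controls at most 2.02 CPM, and 68 members held a UMI of it. Spred3, an inhibitor of Ras signalling, had -0.35 ± 0.09, with mutants at 19.8 to 27.7 CPM and controls at 27.9 to 42.6 CPM in the upper layer and a deep-layer log2 fold of -0.10. Nwd2 (0.29 ± 0.07) and Fbxo16 (-0.47 ± 0.10) had overlapping groups.

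Synpo2, which leads cluster 11, also had a high layer term (1.63 ± 0.39). It was at 20.0 to 36.3 CPM in mutants 3, 5 and 6 and at 2.10 to 4.53 CPM in mutants 1, 2 and 4, against 2.02 to 6.74 CPM in controls. Lef1, another gene of that cluster, stood at 1.58 to 6.91 CPM in controls and 1.57 to 32.0 CPM in mutants (log2 fold 1.93 ± 0.50). Cluster 11 held 510 of the 643 Synpo2 UMIs and 383 of those of Lef1. Mutant 3 had 1 nucleus of this cluster among its 59 members. Outside clusters 9, 10 and 11, Synpo2 stood at 1.602 to 4.70 CPM in mutants and 1.56 to 4.68 CPM in controls, and the groups overlapped. Lef1 stood there at 1.51 to 8.35 CPM in mutants and 1.25 to 4.42 CPM in controls, with 3 of 6 mutants above every control.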

How the data were processed

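Nuclei isolated from frozen cortex were sequenced with the 10x 5' method. Per the labels and the study's methods, the authors used bcl2fastq 2.20.0.422 and CellRanger 5.0.1, introns included, with mm10, and the deposited files hold UMI counts for each gene and barcode, not normalized. Only cortical libraries entered the comparisons, 6 per genotype.

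Members were chosen per nucleus from these counts, and members, lists and tests were chosen with earlier results of these data known. Counts were summed over members per library (all held at least 20) and tested with edgeR 4.0.16 in R 4.3.3 (TMM factors 0.931 to 1.04, filterByExpr, quasi-likelihood test, Benjamini-Hochberg, threshold 0.05), with DESeq2 1.42.0 as an alternative. Shares were tested by a two-sided exact permutation of the genotype labels (924 arrangements), and scripts were tested on simulated data. Clusters came from scanpy 1.11.5 (2000 variable genes, 20 components, resolution 0.3). A cluster was named where at least 3 markers of a list, and most of that list, were over 2-fold above the other members, a rule set after the clusters were seen. It counted as another class where 5 or more markers of another class were over 2-fold or 3 mitochondrial genes led it. Doublets were scored with Scrublet and left in. Gene positions came from GENCODE M21 (GRCm38), which held 32158 of 32288 genes.

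Named were the 10 genes of smallest p (fewer than 5 having passed), 6 for the layer term, and per list the 2 of highest CPM and the 1 of smallest p. For upper against deep layers the 15 largest ratios in each direction were taken. Only genes with at least 50 CPM in either layer and the same sign in all 12 libraries were ranked. Other genes in the text (Lef1, Npsr1, further sterol genes and leading genes of clusters or of the Rorb split) were named after their values were seen. Some genes that these rules named are not reported here. Replicate numbers are not said to pair mice, so they were not treated as pairs, and a replicate block was computed as an alternative. Same-numbered libraries correlated by 0.0572 to 0.569, all positive and below 0.1 for pair 4. Mice with numbers 1 to 4 had the same labelled age in both genotypes. Deep brain libraries were not analysed here beyond a count of nuclei.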

Additional observations from a re-analysis of the deposited data

Results flagged for a closer look

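In 7 of 60 groups of 6 libraries examined, the highest or lowest library lay further from the next than Dixon's limit for 6 samples. For independent and normally distributed values, chance gives about 5% of groups, or 1 in 20. The groups here share nuclei, and some of the flagged values rest on 1 or 2 nuclei. The 7 of 60 can therefore not be weighed against that rate. The upper-layer share of both layers in control 4 was 32.7% against 29.97% for the next control. Msmo1 in control 3 was 58.2 CPM, with the next control at 40.3 CPM, and Capns1 in control 5 was 22.9 CPM, with the next at 29.8 CPM. Mfge8 in mutant 6 was 4.48 CPM against 2.13 CPM in the next mutant. Lef1 in control 5 was 6.91 CPM against 2.82 CPM. Cluster 7 held 0.676% of the members of control 4, with the next control at 2.49%, and cluster 11 held 1.59% in control 2, with the next at 0.356%.

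In the deep brain libraries, which entered no comparison here, 1650 nuclei met the same counts as the members. They numbered 96 to 383 per control and 15 to 149 per mutant. Whether they are cortical neurons was not tested.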

How the results depend on the processing

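The count of genes that differed between genotypes was 0 in 31 of 32 alternatives, with 2.79% to 8.52% of the genes tested at a p under 0.05 (220 to 1103 genes, of 6493 and 24486 tested). These were DESeq2, RLE size factors, no filter on low counts, a replicate block, an age-matched block, terms or subsets for depth and age, stricter or thinned members, each library left out, and all libraries with any member, which were the same 12 libraries. With the replicate block it was 0 (1028 genes at a p under 0.05, the highest share, smallest adjusted p 0.129). Of 12 libraries, 6 were closest to the same number in the other genotype. Without mutants 3, 5 and 6, it was 1 (Crh, log2 fold 2.62, adjusted p 0.0438). That setting was chosen after seeing the data, and these are the mutants low in Crh and high in Synpo2, so it supports nothing about either gene. The layer by genotype count was 54 without the filter on low counts and 0 to 1 with a library left out (1 without mutant 2: Npsr1, log2 term -1.12, adjusted p 0.00293). Without the filter the layer terms of Col23a1, Crh, Synpo2 and Nwd2 (0.62, 2.70, 1.65 and 0.30) passed. Without mutants 3, 5 and 6, the mice high in Synpo2, its term was -0.0033. The cause was not tested.

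In the libraries of at least 1500 median UMIs, differences in share were 1.44, 0.379 and 2.84 percentage points for upper-layer nuclei, for their part of both layers and for Rorb, opposite to those in all libraries. The first was 0.0337 after thinning to 3000 UMIs. With 1 library left out they ranged from -1.39 to -0.256, from -2.76 to -1.45 and from -2.03 to 1.32, the last above 0 without controls 1 or 4 or mutants 1, 2 or 5. No share passed a test in any alternative. The 5 libraries of at least 1500 median UMIs and the 7 below could not pass at their size (smallest possible p 0.2 and 0.0571, two-sided exact permutation test). At a clustering resolution of 0.6, 14 clusters again gave 0 differing shares (smallest adjusted p 0.742). Mutant 3 gave 59 members, which limits genes of low count most.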
